A study of Hordeum vulgare with 4 samples.

Results

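This account concerns the 237 genes of a barley callus transcript assembly that were counted in cultivar GP and not in cultivar D91. They were chosen by their measured counts, which had to be 10 or more in each GP library and 0 in each D91 library, and no test entered the choice. They are 237 of the 61598 assembled genes, and of the 16201 genes that reached 10 counts in both GP libraries. The values from GP and from D91 that made this choice are given as a description, and the difference between the cultivars at these genes is not a finding.

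The libraries were made from messenger RNA of callus of Golden Promise (GP) and DWR91 (D91), 2 cultivars of Hordeum vulgare contrasted for regeneration in culture. Each cultivar had 2 libraries, GP replicates 1 and 2 and D91 replicates 1 and 2. All calli were 31 days old and had the same culture, 28 days on BCIM in darkness and then 3 days on BRM under indirect light. Separate cultures are not stated for the replicates, so the spread between them, and any p-value read against it, may be technical.

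Callus is a mass of dividing cells that loses the organisation of the tissue it came from, and shoots can be regenerated from it under suitable hormones and light. Cereal cultivars differ widely in this capacity, and Golden Promise is a standard host for barley transformation. Cultivars of a crop also differ in gene content and sequence, so that a transcript found in one cultivar may be silent, altered or missing in another. In a bulk library a count of 0 does not tell these apart, nor does it separate fewer expressing cells from less RNA per cell.

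The identifiers are those of the assembly, and 0 of the 61598 matched an entry of the reference gene table. No gene name, function, marker of the tissue or sequence is therefore given, and the label of callus was not checked against marker genes. Only the 2 most abundant of the 237 genes are printed by identifier. The others are called by their rank in mean GP level, with levels as CPM, which are counts scaled to the library total. Library totals were 1825200 and 1736829 counts in GP and 1743306 and 3442776 counts in D91.

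The 237 genes were mostly of low abundance, with a few abundant ones at the top. TRINITY_GG_6759_c0_g1 had 3440 and 2632 counts in the GP libraries, against 0 and 0 in the D91 libraries. This was 1885 and 1515 CPM in GP, which placed it at rank 29 among all genes of GP callus. TRINITY_GG_28813_c0_g1 had 1074 and 637 counts in GP, against 0 and 0 in D91. Its levels of 588 and 367 CPM in GP placed it at rank 186. Both were single genes at their locus of the assembly, where the locus is the number after TRINITY_GG, and each had 1 isoform.

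The next genes were lower. The third had 470 and 444 counts in GP, or 258 and 256 CPM, with the 2 GP libraries nearly equal. The fourth had 505 and 233 counts in GP, or 277 and 134 CPM, and was over 2-fold higher in GP replicate 1. The fifth had 387 and 212 counts in GP, or 212 and 122 CPM, again higher in replicate 1. All 5 had 0 counts in both D91 libraries, and all 5 were higher in GP replicate 1 than in replicate 2 by CPM.

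The sixth gene had 129 and 81.2 CPM in GP. Genes at ranks 7 to 20 lay between 44.4 and 107 CPM in GP replicate 1 and between 46.1 and 100.2 CPM in GP replicate 2. Ranks 21 to 50 had medians of 35.3 and 34.5 CPM in these libraries, and ranks 51 to 100 had medians of 18.9 and 19.0 CPM. The remaining 137 genes had medians of 9.31 and 8.06 CPM, close to the minimum that the rule sets. The gene at the middle rank, 119, had 21 and 24 counts in GP and 0 and 0 in D91. Of the 237 genes, 118 reached 20 counts in both GP libraries, 41 reached 50, 14 reached 100 and 1 reached 1000. Only 5 were among the 1000 most abundant genes of GP callus, while 87 were among the 10000 most abundant.

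**Figure D1:**
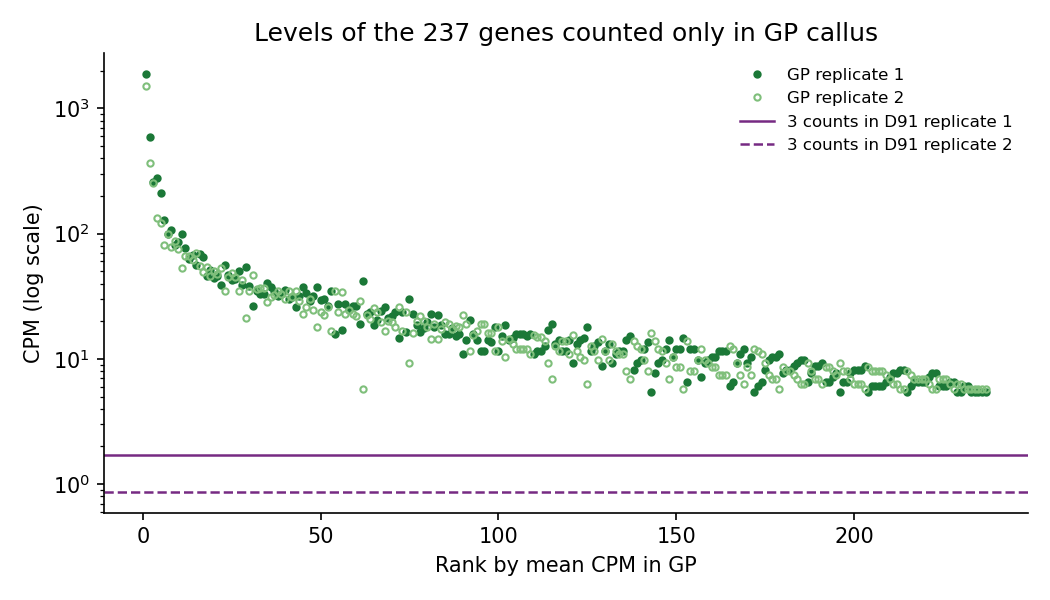
Level of each of the 237 genes in GP replicate 1 (filled) and GP replicate 2 (open), in CPM on a log axis, ordered by mean GP level. The lines mark 3 counts in D91 replicate 1 (1.72 CPM) and in D91 replicate 2 (0.871 CPM), and every GP point lies above both lines.

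Together the genes took 0.782% of the counts of GP replicate 1 (14276 counts) and 0.665% of those of GP replicate 2 (11545 counts), a mean of 0.723% ± 0.0830 (SD, n = 2). The most abundant gene alone held 24.1% and 22.8% of these counts, and the first 5 genes held 41.2% and 36.0%. Without these 5 the share was 0.460% in GP replicate 1 and 0.425% in GP replicate 2. When D91 replicate 2, the deepest library, was not used to choose the genes, the share was 1.21%.

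A count of 0 bounds a level and does not show that it is absent. With 3 counts taken as the limit that 0 allows, D91 replicate 1 could hold up to 1.72 CPM of such a gene and D91 replicate 2 up to 0.871 CPM. Set against the mean of these 2 limits, the measured GP level was 4.33-fold higher for the lowest of the 237 genes and 1312-fold higher for the highest. The middle one of these folds was 9.77. They are lower bounds on the D91 side only, since the GP level was taken as measured, with no limit of its own. These bounds use library totals. With the TMM scaling of the fit, an alternative chosen after seeing the data, the lowest, middle and highest were 3.98, 8.97 and 1205. TRINITY_GG_6759_c0_g1 has the highest bound, and that of TRINITY_GG_28813_c0_g1 is 368. The limits cover counting error in the D91 libraries alone, and reads are not independent molecules. At the GP level, a gene of the set would have had a median of 22.1 counts in D91 replicate 1 and 43.6 in D91 replicate 2, with a lowest value of 9.79 in replicate 1. Before rounding, 234 of the genes had exactly 0 expected counts in D91, and the other 3 had at most 0.38 in the 2 libraries together. The deposited expression table also lists 234 of them at 0 in both D91 libraries.

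In the fit across all genes, 225 of the 237 passed the filter on low counts, through their GP libraries alone. All 225 were called higher in GP (quasi-likelihood test of edgeR, with p-values adjusted by Benjamini-Hochberg over all tested genes and a threshold of 0.05), against 9.16% of the 18035 tested genes. Because the rule used the same counts, this number carries no information beyond the rule. Without GP replicate 1 the fit called 112 of the 165 genes that passed its filter, beside 2.27% of all genes in that fit, and without GP replicate 2 it called 106 of 185, beside 1.91%. In these fits the spread comes from the D91 pair, and the lone GP library is assumed to vary like it. The genes were still those chosen from all 4 libraries, so these numbers too add no evidence about the set. The 12 genes that did not pass the filter had 10 counts in GP replicate 1 and 10 to 28 in GP replicate 2.

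The rule has 2 edges, and the genes near them were as follows. Among genes with at least 10 counts in both GP libraries, 237 had a D91 total of 0, while 43 had 1 count, 35 had 2, 27 had 3, 50 had 4 and 50 had 5. The number at 0 exceeded the 205 genes with totals from 1 to 5. Genes with a D91 total of 1 had a median mean level of 12.3 CPM in GP, beside 12.7 CPM for the 237 genes, and their GP counts ran from 10 to 634. Of these 43 genes, 28 had their count in D91 replicate 2 and 15 in D91 replicate 1. At the other edge, 22 genes with 0 in D91 had 11 as their lower GP count and 23 had 10, while 12 had 9 and 30 had 8, just outside the rule.

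**Figure D2:**
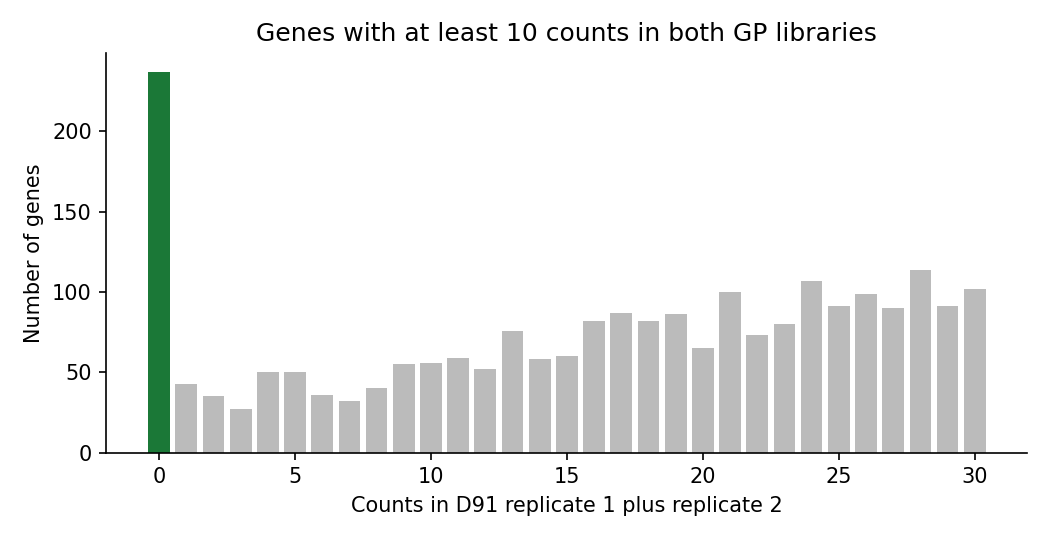
Number of genes (vertical axis) with at least 10 counts in both GP libraries, by the sum of their counts in both D91 libraries (horizontal axis). The green bar holds the 237 genes at 0 and stands above the grey bars next to it, which hold 43, 35 and 27 genes.

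The number of genes moved with the libraries used. Leaving out a library drops a condition of the rule, so the number could not fall. Leaving out D91 replicate 2 gave 422 genes, since 185 genes with 0 in D91 replicate 1 had counts in replicate 2, with a median of 7 and a highest value of 1525. Leaving out D91 replicate 1 gave 299 genes, and the 62 added genes had a median of 3.5 counts in that library and a highest value of 156. Leaving out GP replicate 2 gave 357 genes and leaving out GP replicate 1 gave 304. With all 4 libraries thinned to the smallest total of 1736829 counts, 256 genes had the pattern. The mirrored pattern, 0 in both GP libraries and at least 10 in both D91 libraries, was found for 150 genes after the same thinning and for 171 genes before it. Whether the 2 numbers differ was not tested.

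The ratio between the GP libraries was not set by the rule beyond the minimum in each. The median absolute log2 ratio of CPM between GP replicates 1 and 2 was 0.31 for the 237 genes and 0.21 for the 15964 genes that reached the same minimum and had a count in D91. The exact binomial 95% interval of the first median ran from 0.25 to 0.35, and it treats the genes as independent. Across genes, which are not independent and share the 2 libraries, Pearson's r of log2 CPM was 0.91 for the 237 genes and 0.97 for the others. Of the 237 genes, 13 (5.49%) differed over 2-fold between the GP libraries, beside 217 (1.36%) of the others. In 10 of the 13 genes GP replicate 1 was higher, and in 3 GP replicate 2 was higher. The widest difference was at rank 62, with 76 and 10 counts in GP.

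The set holds more genes of low count than the others, so the ratio was also read by count. With a mean of 10 to 20 GP counts, the median absolute log2 ratio was 0.32 in the 237 genes and 0.28 in the others. With 20 to 40 counts it was 0.36 and 0.28, and with 40 to 100 counts 0.22 and 0.21. With 100 counts or more, where the set has 17 genes, it was 0.31 and 0.14. Over all genes of the set, 134 were higher in GP replicate 1 and 103 in GP replicate 2.

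**Figure D3:**
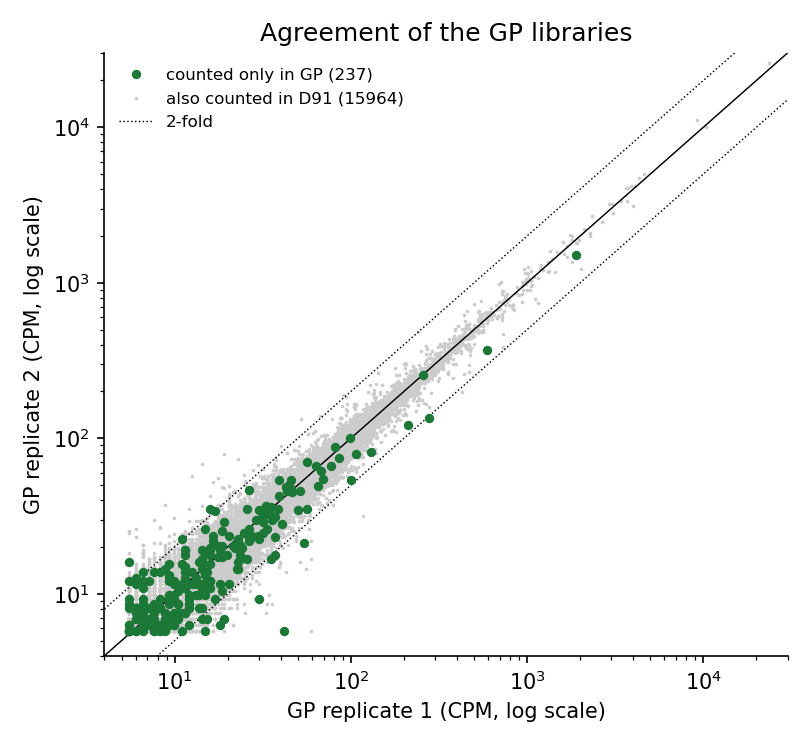
Level in GP replicate 1 (horizontal axis) and GP replicate 2 (vertical axis), in CPM on log axes, for the 237 genes counted only in GP (green) and the 15964 genes also counted in D91 (grey). The solid line marks equal levels and the dotted lines a 2-fold difference, and 13 green genes differ over 2-fold once a prior count of 2 is added.

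Genes counted only in GP became rarer with rising abundance. They were 2.99% of the genes with a mean of 10 to 20 GP counts (exact binomial 95% interval 2.44 to 3.63), and 1.68% of those with 20 to 40 counts (1.32 to 2.11). They were 0.942% of genes with 40 to 100 counts (0.690 to 1.25) and 0.475% of genes above that (0.277 to 0.759). These intervals cover the counting of genes only and treat the genes as independent, which they are not. Since the rule used the counts, no test is given.

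The genes had lower relative effective length than the others. It was read as counts over length-scaled expression in the GP libraries, with the median gene of at least 10 GP counts set to 1. An effective length depends on the fragments of a library and is not the transcript's own length, above all in short transcripts. The median relative effective length was 0.580 for the 237 genes, with quartiles of 0.349 and 0.960, and 1.01 for the other genes, with quartiles of 0.620 and 1.51. It was 0.581 from GP replicate 1 and 0.583 from GP replicate 2. Of the 237 genes, 185 (78.1%) had a lower value than the median gene, beside 49.5% of the others. The order was the same at each count level, with 0.463 and 0.677 at 10 to 20 counts, 0.689 and 0.907 at 20 to 40, 0.835 and 1.14 at 40 to 100, and 0.698 and 1.41 above. The 171 genes with the mirrored pattern had a median of 0.645 in the D91 libraries. The part that effective length has in a count of 0 was not tested.

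The order of the genes differed on the per-length scale. TRINITY_GG_6759_c0_g1 was highest there as well, with 3123 and 2484 units of the deposited expression in GP and 0 and 0 in D91. The gene second on this scale was the eleventh by CPM, with 183 and 93 counts in GP and 0 and 0 in D91. It had the lowest relative effective length of the set, and its expression was 1817 and 1103 units in GP. Such a high value per length rests on few reads. TRINITY_GG_28813_c0_g1 had rank 3 on it, with 1488 and 932 units in GP. The gene of highest relative effective length, at 3.31 times the median, had rank 10 by CPM and rank 111 by expression.

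**Figure D4:**
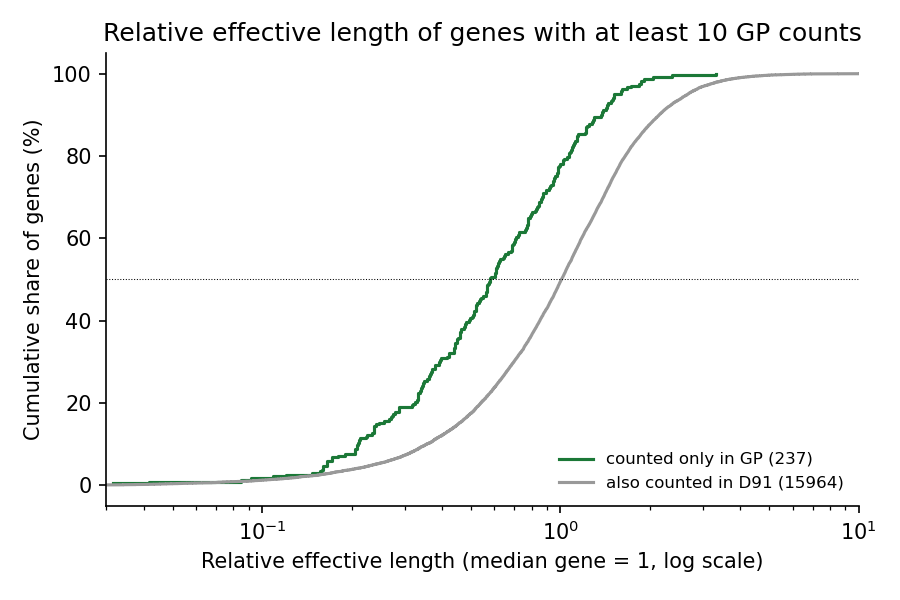
Cumulative share of genes (vertical axis, percent) by relative effective length (horizontal axis, log scale, median gene = 1), for the 237 genes counted only in GP (green) and the 15964 genes also counted in D91 (grey). The green curve crosses 50% at 0.580 and the grey curve at 1.01.

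Most of the genes were assembled as 1 transcript. A single isoform was present for 180 of the 237 genes (75.9%), beside 62.4% of the others, and 33 genes had 2, 16 had 3 and 8 had more. At 10 to 20 GP counts the shares with 1 isoform were 79.0% and 77.2%, and at 100 counts or more 82.4% and 55.4%. The gene at rank 47 had 10 isoforms, with 53 and 52 counts in GP and 0 and 0 in D91. In the 57 genes with several isoforms, the leading one held a median of 74.5% of the GP counts. It was the same isoform in both GP libraries for 44 of the 57. No isoform of the 237 genes exceeded 0.38 expected counts in a D91 library.

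Some of the genes had the same counts as another gene. Near-identical copies that share reads could show this pattern. Of the 237 genes, 63 (26.6%) matched a gene at another locus in their rounded counts in each of the 4 libraries, beside 435 (2.72%) of the others. With both D91 values fixed at 0, only the GP values have to coincide, which low counts do more readily. The genes with a shared set of counts had a median of 7.61 CPM in GP, beside 16.8 CPM for the rest of the set, and 0 of the first 25 genes were among them. A stricter match required the same expected counts to 2 decimals and the same relative effective length to 3 decimals. It left 12 genes (5.06%) in 6 pairs, beside 1.99% of the others. The genes at ranks 33 and 34 were such a pair, with 60 and 64 counts each in GP and 0 and 0 in D91. A pair of loci matched at both of their genes in the set, those at ranks 118 and 150 at the first locus and 119 and 151 at the second. Whether these genes share reads was not tested, so their levels may be uncertain.

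The 237 genes lay at 228 loci, of which 9 held 2 genes of the set. At 123 loci the gene stood alone. The other loci held 195 further genes, called partners here. A gene that met the rule was in the set and could not be a partner, so the rule also shaped the partners. Of the partners tested below, 0 had a D91 total of 0. Partners at a locus may also share reads or be pieces of 1 transcript. Of the 237 genes, 45 (19.0%, exact binomial 95% interval 14.2 to 24.6) had a partner with a count in D91, beside 53.6% of the other genes. The interval treats genes as independent, which they are not. The other genes had a count in D91 by definition and were more abundant, with medians of 24.1 and 23.6 CPM in GP replicates 1 and 2, beside 13.1 and 12.1 CPM. This share was not read by count level. Having a partner at all was less unequal, at 45.6% of the 237 genes and 57.9% of the others. The 2 shares are not quite alike. For the 237 genes another gene of the set was not a partner, while for the others any further gene at the locus was. Of those with a partner, 41.7% and 92.7% had one counted in D91. Summed over the locus, 184 of the 228 loci had 0 counts in D91. Only 102 of the 228 loci held a partner, and at the rest the rule itself fixed the sum at 0.

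Most partners were too low to test. Of the 195, 120 had 0 counts in D91, and these had a median of 4 counts in both GP libraries together. The fit tested 38 partners at 25 loci. It called 16 of them (42.1%) higher in GP, against 9.16% of all tested genes, and 3 (7.89%) higher in D91, against 10.1% of all tested genes. Only 4 of the 16 had at least 10 counts in every library. The rest had fewer than 10 counts in each D91 library and passed the filter on low counts through their GP libraries alone. The 42.1% is therefore not free of the choice made by the filter. Without GP replicate 1 the fit called 9 of 39 partners higher in GP (2.27% of all genes in that fit), and without GP replicate 2 it called 8 of 44 (1.91%). Leaving out either D91 library raised the number of partners called higher in GP, and also that of all genes called. The spread then came from the GP pair alone. The median log2 fold change, GP over D91, was 0.65 for the tested partners and 0.01 for all tested genes. Both GP libraries exceeded both D91 libraries by CPM in 25 of the 38 tested partners, beside 38.1% of all tested genes.

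Partners close to the edge of the rule made up much of this number. Of the 16, 7 had at most 3 counts in both D91 libraries together, and 2 had the same counts as each other at different loci. The partner with the most counts among the 7 had 91 and 58 in GP, against 0 and 1 in D91. Of the 18 partners with at least 10 counts in every library, 4 (22.2%) were called higher in GP, beside 5.76% of the 13714 tested genes with such counts, and 2 were called higher in D91. The 19 partners that were not called included the one most abundant in GP, which had 478 and 466 counts in GP, against 292 and 498 in D91, a log2 fold change of 0.67 (standard error 0.19, edgeR adjusted p = 0.0507).

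Single loci held different patterns side by side. The gene at rank 7 had 181 and 174 counts in GP and 0 and 0 in D91. A partner at its locus had 155 and 142 counts in GP, against 29 and 58 in D91, a log2 fold change of 2.21 (standard error 0.20, edgeR adjusted p = 0.00245). A second partner had 31 and 38 counts in GP, against 0 and 1 in D91. The third had 13 and 8 counts in GP, against 10 and 16 in D91, and was not called (log2 fold change 0.11, standard error 0.45, edgeR adjusted p = 0.888). At the locus of the gene at rank 9, with 149 and 152 counts in GP and 0 and 0 in D91, a partner had 284 and 306 counts in GP, against 107 and 178 in D91. That partner had a log2 fold change of 1.46 (standard error 0.20, edgeR adjusted p = 0.00643). In the opposite direction, a partner elsewhere had 31 and 23 counts in GP, against 83 and 557 in D91. Its log2 fold change was -2.90 (standard error 0.58, edgeR adjusted p = 0.0191), and the D91 libraries differed widely.

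**Figure D5:**
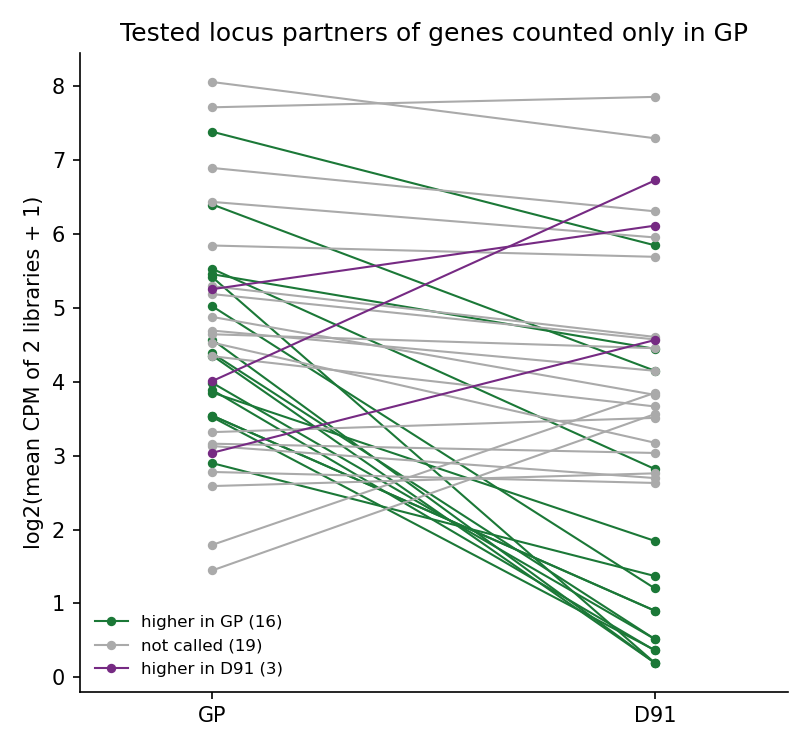
Mean level of the 38 tested partners in GP (left) and D91 (right), as log2 of mean CPM plus 1, with a line for each partner. Green lines are the 16 called higher in GP, purple lines the 3 called higher in D91 and grey lines the 19 not called.

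Some of the loci had neighbouring numbers. The 228 loci included 8 pairs of consecutive numbers, in 4 runs of 2 loci and 2 runs of 3. One run of 3 held the genes at ranks 3, 34 and 9, and the other those at ranks 4, 114 and 234. Among loci with a gene of at least 10 counts in both GP libraries, 195 had a number next to a locus of the set, and 14 of these (7.18%) were themselves in the set, beside 1.57% of all such loci. No adjacent pair shared identical counts (0 of 8), but the genes of these runs at ranks 34, 105 and 234 shared theirs with genes at loci elsewhere. Of 228 tested genes of other loci with an adjacent number, 19 (8.33%) were called higher in GP, against 9.16% of all tested genes, and 26 (11.4%) were called higher in D91, against 10.1%. No source used here states how the loci were numbered.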

How the data were processed

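Messenger RNA of 4 callus libraries was sequenced, 2 per cultivar. Per the submitters' processing notes the tools included DESeq2, RSEM and STAR, with no version; neither the genome build nor any filter is stated in the sources used here. The deposited isoform table holds expected counts. The deposited TMM tables hold an expression signal, scaled by length and by library. The deposited gene table named as counts is proportional to that signal in each library (the ratio varied by at most 0.00504%, as SD over mean), so it was not used as reads. No column belonged to an unmapped sample (0).

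Isoform counts were summed per gene and rounded. Genes were fitted in R 4.3.3 with edgeR 4.0.16 (TMM scaling, filterByExpr, cultivar only, quasi-likelihood test, adjusted p under 0.05 over all tested genes). The fit was also run on simulated data with large planted changes, a check that set no limit on false calls. CPM used library totals, log2 CPM a prior count of 2. With 2 libraries against 2, a permutation test cannot go below p = 0.333. Alternatives used DESeq2 1.42.0 and limma 3.58.1. The 2 genes highest in GP are printed by identifier. The genes and comparisons were chosen with earlier results of these data known.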

Additional observations from a re-analysis of the deposited data

How the results depend on the processing

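The number of genes counted in GP only (237) was 474 with at least 5 counts in both GP libraries, 118 with 20, 41 with 50 and 14 with 100, 549 when isoforms were counted instead of genes, and 304, 357, 299 and 422 with each library left out (GP replicates 1 and 2, then D91), a range of 299 to 422. With a library left out the number could not fall, since a condition of the rule was dropped. It was 1678 in the deposited gene table of scaled values, where 10 is not a number of reads. It stayed between 174 and 292 with exactly 0 expected counts, up to 1 count in D91, thinning, locus sums, the TMM table's zeros and without genes sharing counts. Genes called between the cultivars (3465; 1652 higher in GP) were 2004 (734) without a filter, 2198 (971) with at least 10 counts in every library, 1822 (763) in DESeq2, and 2043 (835) in limma on the deposited signal with a pseudocount of 0.1, and 1092 were higher in GP with a pseudocount of 1. Leaving out each library gave 700 to 6902 (385 to 3133), with 106 to 237 of the set and 8 to 30 partners called higher in GP. The filter of at least 10 counts in every library left 0 of the set by construction. It left 18 partners, of which 5 were called higher in GP, beside 7.08% of all genes in that fit. Under RLE, library totals, voom and the replicate block (3040 genes, 1408 higher in GP), all 225 tested genes of the set were called. So were 14 to 18 of the 38 tested partners, higher in GP. The shares of all genes called higher in GP in these 4 fits were 9.1%, 11.1%, 9.45% and 7.81%. With library totals the median over all tested genes, GP over D91, was 0.12 in log2, beside 0.01 with TMM. Replicate numbers share no known pairing (r = 0.03 between deviations of same-numbered libraries). The share with a partner counted in D91 was 6.33% when the partner needed 10 counts in both D91 libraries. The share of GP counts was 0.725% to 1.21% with a library left out. Median relative effective length was 0.548 to 0.609 with a library left out, 0.678 without genes sharing counts and 0.588 by the leading isoform. The cause was not tested unless given here. Low counts limit what can be said of the 119 genes under 20 counts in a GP library.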
